A study of Mus musculus with 2 samples.

Results

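The 36 genes described here encode aminoacyl-tRNA synthetases, the enzymes that join each amino acid to its transfer RNA before it enters the ribosome. They were picked by gene symbol, as a family and not by a cut on their values, and all 36 were present among the 21937 genes of the table, each with reads. Of these, 20 encode cytosolic enzymes and 16 encode mitochondrial enzymes, whose symbols end in 2. Gars and Kars, which serve both compartments, are counted as cytosolic. Mouse embryonic stem cells (ESCs) of wild type genotype and strain 129Sv-C57Bl/6, grown without feeder cells, were exposed for 16 h to 500 nM ICRF-193, a catalytic inhibitor of topoisomerase II that leaves the enzyme closed around DNA, or to its solvent DMSO alone. For both groups the sample records give a medium change at 24 h and a start of treatment at 32 h. Each of the 2 groups had 3 RNA sequencing libraries, ICRF-193 and DMSO, and the question of the study was what topoisomerase II activity, Top2a in particular, does to transcription. ICRF-193 acts on both topoisomerase II enzymes of the mouse, so that the treatment is not specific to Top2a.

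Synthetases fall into 2 unrelated structural classes, class I and class II, which approach the transfer RNA from different sides. The nucleus encodes a cytosolic and a mitochondrial enzyme for most amino acids, usually from separate genes, while Gars and Kars supply both compartments from single genes. Several cytosolic enzymes sit together in the multisynthetase complex, held by the scaffold proteins Aimp1, Aimp2 and Eef1e1. In mammalian cells short of amino acids the transcription factor ATF4 is known to switch on many of the cytosolic synthetase genes through an element with the core TGATGNAA.

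That core was searched on both strands in the promoter windows, 250 bases before to 50 after the start site, that RefSeq gives on GRCm38.p6 for 27 of the 36 genes. Of 13 cytosolic genes with a window, 5 held it (Aars, Gars, Iars, Tars and Yars), against 0 of 14 mitochondrial genes and 4.13% of all 17492 protein-coding genes with a window. The matches are printed below 5′ to 3′ on the strand of the gene, with 30 bases on each side, because all 5 genes were among those called lower under ICRF-193. The capitals mark the 8 matched bases, and all but the Yars match read as the reverse complement of the core.
Aars, chr8:111033700-111033767, plus strand: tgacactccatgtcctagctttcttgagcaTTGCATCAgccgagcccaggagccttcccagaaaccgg
Aars, chr8:111033821-111033888, plus strand: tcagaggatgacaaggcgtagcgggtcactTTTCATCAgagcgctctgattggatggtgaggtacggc
Gars, chr6:55037941-55038008, plus strand: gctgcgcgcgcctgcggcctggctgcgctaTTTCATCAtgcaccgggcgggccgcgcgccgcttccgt
Iars, chr13:49682107-49682174, plus strand: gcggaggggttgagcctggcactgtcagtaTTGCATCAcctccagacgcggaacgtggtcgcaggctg
Tars, chr15:11399636-11399703, minus strand: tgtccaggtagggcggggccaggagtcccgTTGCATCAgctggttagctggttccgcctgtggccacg
Yars, chr4:129189876-129189943, plus strand: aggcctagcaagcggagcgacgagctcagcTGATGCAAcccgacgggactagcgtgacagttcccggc
With the start site counted as 0, the first matched base lay at -112 and 9 in Aars, -30 in Gars, 7 in Iars, -15 in Tars and 3 in Yars. The longer form TGATGCAAT was found only in Aars and Iars among the genes with a window, against 0.206% of all protein-coding genes. Windows without the core were those of Dars, Eprs, Farsa, Farsb, Kars, Mars, Qars and Sars among cytosolic genes. Cars, Hars, Lars, Nars, Rars, Vars, Wars, Hars2 and Pars2 had no entry. A match is a run of letters and says nothing on binding.

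In each group the libraries are called A, B and C, from the largest size factor to the smallest; these letters are no replicate numbers. Their reads were worked back from the printed digits of the group means and ran from 27681922 to 32186154 under ICRF-193 and from 31249598 to 44355948 in DMSO. Every synthetase except Lars2 was resolved, and the lowest count of a resolved synthetase in any library was 291 reads. Values below are normalised reads, that is reads divided by the size factor of their library, in the order A, B and C. All 10 ESC markers examined had reads, and their summed level was 102463, 113203 and 120331 under ICRF-193 against 154769, 172381 and 162560 in DMSO, lower in each ICRF-193 library. The deposited test called 1 of the 10 lower (Zfp42), against 1.26% of all genes tested. With limma-voom on the recovered reads 2 were called lower (Zfp42 and Sox2), against 5.97%. Among single ESC markers Nanog, Zfp42, Esrrb, Klf4 and Sall4 were highest in library A of both groups. Klf4 had 3292, 1407 and 1329 under ICRF-193 against 6972, 3162 and 2285 in DMSO. Pou5f1, Tdgf1 and Utf1 were lowest in library A of both groups, and Sox2 and Dppa5a only under ICRF-193. Library A also stood apart in both groups in the sums of other markers. The 9 fibroblast markers summed to 21296, 3673 and 2932 under ICRF-193 against 18577, 2137 and 2128 in DMSO. Col1a1 made up most of the library A sums, at 15180 under ICRF-193 and 12908 in DMSO. Col1a2, Col3a1, Pdgfrb, Postn and Fbn1 were also highest in library A of both groups. Thy1 was lowest there, at 353, 381 and 469 under ICRF-193 against 185, 281 and 311 in DMSO. Dcn and Lum reached at most 15.1 normalised reads. Endoderm markers, of which 6 were examined, summed to 1991, 656 and 913 under ICRF-193 against 2122, 369 and 687 in DMSO, and 2-cell embryo markers, 4 of 6 with reads and Tcstv1 and Tcstv3 at 0, to 959, 139 and 148 under ICRF-193 against 647, 51.6 and 104 in DMSO. None of these fibroblast, endoderm and 2-cell markers was called by the deposited test or by limma-voom with group alone, and the part of cell makeup in the results below was not tested. In bulk RNA, fewer cells of a type and less RNA per cell cannot be told apart. The labels do not say whether the 3 libraries of a group came from separate cultures, so p-values cover the spread between these libraries, which may be technical.

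Many of the cytosolic synthetase genes had lower transcript levels under ICRF-193, and no mitochondrial one passed the test. Of the 36 synthetases, 11 fell in the DESeq test of the authors' deposited table (adjusted p under 0.05, Benjamini-Hochberg over 18759 genes), against 1.26% of all genes tested, and 0 rose, against 5.97%. The 11 that fell were all cytosolic (11 of 20): Aars, Cars, Gars, Iars, Lars, Mars, Nars, Sars, Tars, Vars and Yars. Gars, counted here as cytosolic, also supplies mitochondria. Of the 16 mitochondrial genes 0 were called; 1 of them, Ears2, had an unadjusted p under 0.05 in that table, and a limma-voom fit on the recovered reads called 1, Iars2. In the authors' deposited table the weakest call among the 36 lay at a log2 fold change of -0.75, and the lowest mitochondrial value was -0.62. A gene that was not called may still have changed. The median log2 fold change in the authors' deposited table was -0.75 for the cytosolic and -0.31 for the mitochondrial genes, against 0.01 for all genes tested and -0.13 for the 8895 genes with a mean of 500 or more. Of those 8895 genes, 164 were called lower and 360 higher in the deposited test.

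**Figure D1:**
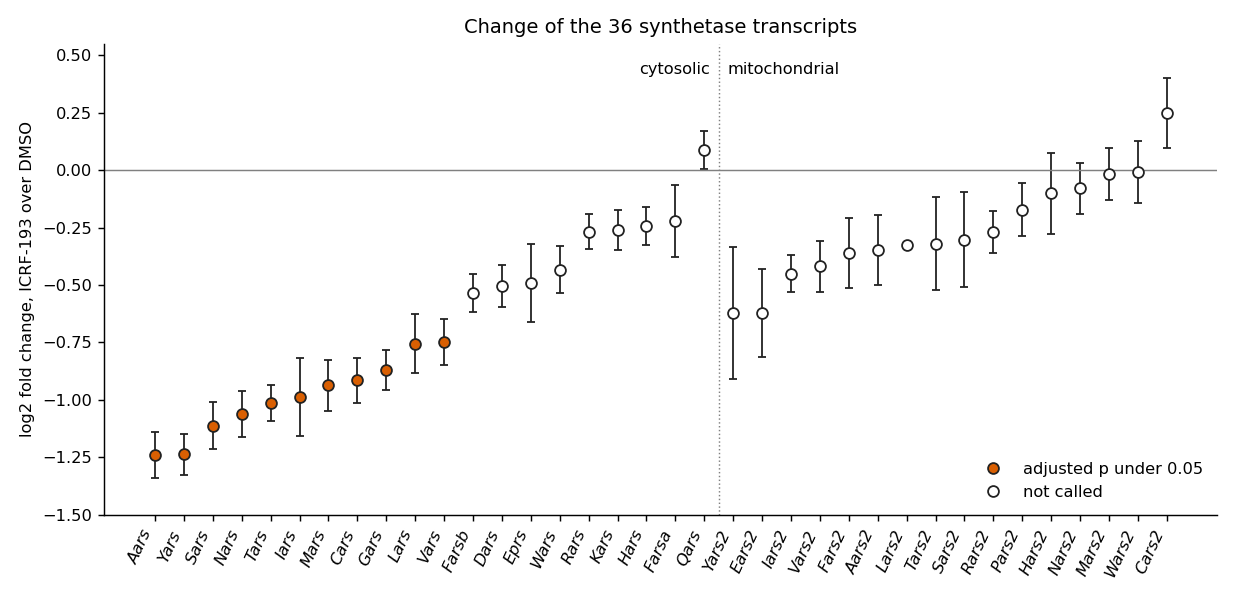
Log2 fold change, ICRF-193 over DMSO, of each of the 36 synthetases as deposited, with the standard error of the limma-voom fit on recovered reads as bars (none for Lars2). Filled points mark the 11 genes called in the deposited test, all on the cytosolic side and between -1.24 and -0.75.

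Summed over all 20 genes, the cytosolic transcripts reached 193886, 188602 and 192294 normalised reads in the ICRF-193 libraries, against 316510, 318750 and 297493 in the DMSO libraries. The groups were far apart, and the ICRF-193 mean was 61.6% of the DMSO mean. Summed over 15 mitochondrial genes, without Lars2, the values were 22015, 25952 and 27126 under ICRF-193 against 27799, 32037 and 34175 in DMSO, 79.9% of the DMSO mean. All 3 ICRF-193 sums lay below all 3 DMSO sums here too, by a narrow margin between ICRF-193 library C and DMSO library A. For single genes, all 3 ICRF-193 libraries lay below all 3 DMSO libraries in 18 of 20 cytosolic and 6 of 15 mitochondrial genes, against 18.8% of the 14993 genes that reached 10 reads in 3 or more libraries. None of the 35 genes lay above in all libraries, against 18.6% of those genes. Among 8861 genes with a mean of 500 or more and reads per library, 2228 lay below and 1038 above in all libraries.

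**Figure D2:**
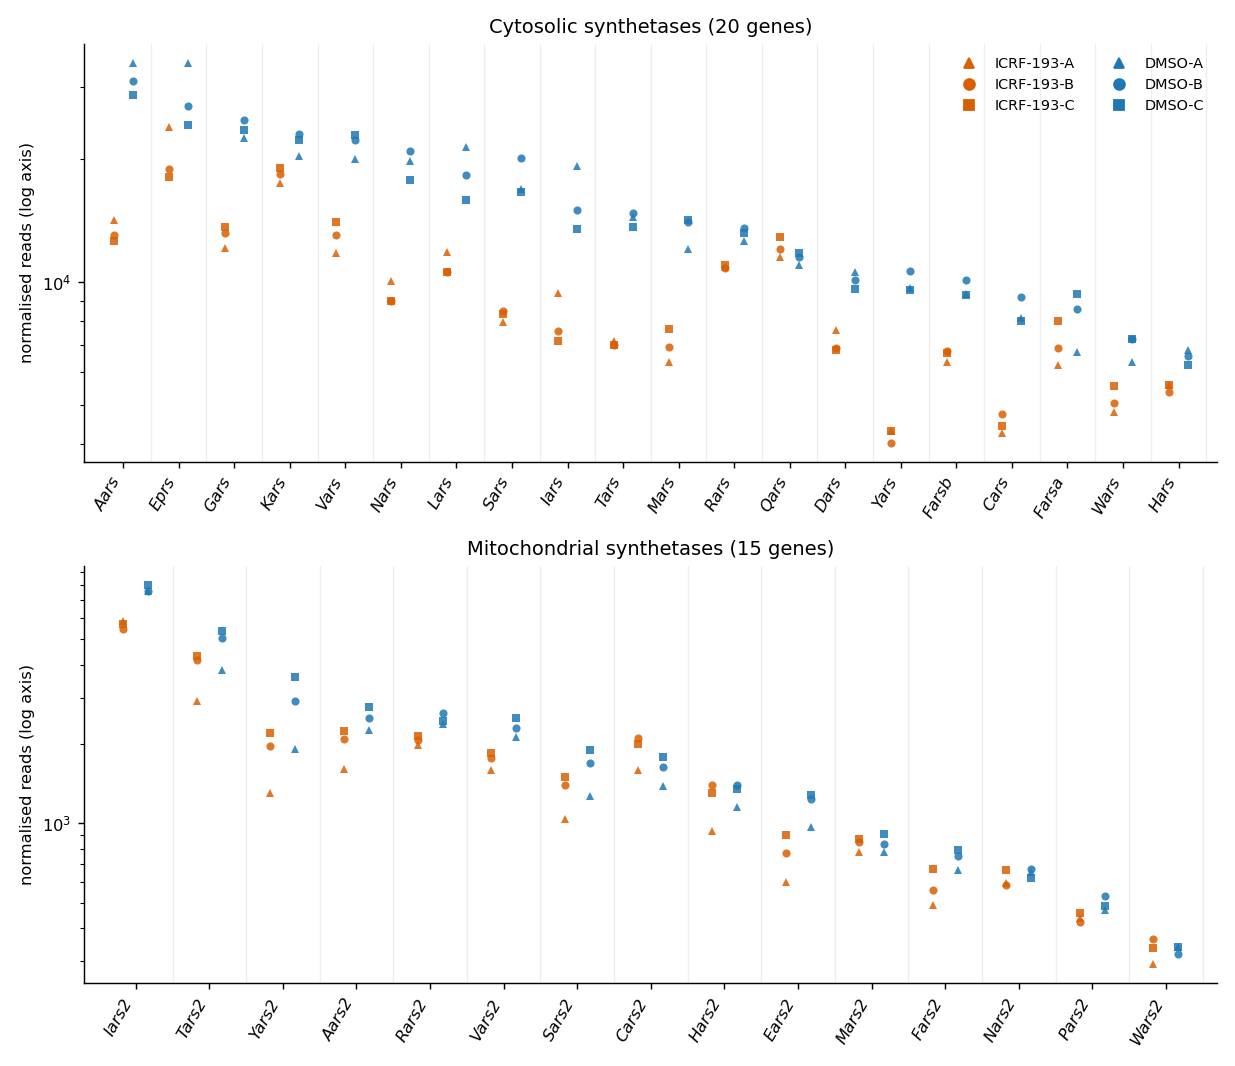
Normalised reads of 35 synthetases in each library on a log axis, ICRF-193 in orange and DMSO in blue, with the marker shape giving library A, B or C. Most cytosolic genes show 2 separate clouds, while the clouds touch or overlap in 9 of 15 mitochondrial genes.

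Class II cytosolic enzymes held 5 of the called genes among 10, against 1.26% of all genes called lower. Aars, the alanine enzyme, had 14172, 13012 and 12623 normalised reads under ICRF-193 against 34280, 31050 and 28723 in DMSO. The lowest DMSO library lay far above the highest ICRF-193 library, and the authors' deposited table gave it as 2.36-fold lower (log2 fold change -1.24, adjusted p = 1.69e-05). By the GENCODE M21 annotation, 1326 exonic bases of Aars (23.1%) are shared with Exosc6 on the same strand, and how such reads were counted is not given in the sources used here. Sars, the serine enzyme, which also charges the transfer RNA for selenocysteine, had 7988, 8474 and 8327 under ICRF-193 against 16930, 20091 and 16576 in DMSO. The ICRF-193 libraries lay close together and well under the DMSO range, 2.16-fold lower in the authors' deposited table (log2 fold change -1.11, adjusted p = 2.11e-04). Nars, the asparagine enzyme, had 10043, 8995 and 8980 under ICRF-193 against 19782, 20902 and 17783 in DMSO. No library of one group reached the other, and the authors' deposited table gave a 2.09-fold lower mean (log2 fold change -1.06, adjusted p = 4.61e-04).

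Tars, the threonine enzyme, had 7168, 7016 and 7003 under ICRF-193 against 14420, 14767 and 13608 in DMSO. Its libraries agreed closely within each group, with 7062 ± 91.8 under ICRF-193 against 14265 ± 595 in DMSO (SD, n = 3 each). The authors' deposited table gave it as 2.02-fold lower (log2 fold change -1.01, adjusted p = 9.60e-04). Gars, the glycine enzyme of both cytosol and mitochondria, had 12110, 13159 and 13600 under ICRF-193 against 22507, 24929 and 23592 in DMSO. The 2 groups did not overlap, and the fall in the authors' deposited table was 1.83-fold (log2 fold change -0.87, adjusted p = 0.00746). Farsb, the beta subunit of the phenylalanine enzyme, showed the largest change of the cytosolic genes that were not called, with 6374, 6760 and 6692 under ICRF-193 against 9339, 10094 and 9272 in DMSO. Its groups did not overlap either, while the authors' deposited table gave a log2 fold change of -0.53 with an adjusted p of 0.2005; limma-voom on the recovered reads called it lower (adjusted p = 0.0104). The alpha subunit Farsa, whose protein forms the same enzyme, had 6268, 6906 and 8029 under ICRF-193 against 6738, 8593 and 9363 in DMSO. Here the groups overlapped (log2 fold change -0.22, adjusted p = 0.814 in the authors' deposited table).

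The deposited test did not call the other 3 class II genes of the cytosol. Dars, the aspartate enzyme of the complex, had 7642, 6874 and 6826 under ICRF-193 against 10578, 10098 and 9597 in DMSO. All ICRF-193 libraries lay below the DMSO libraries (log2 fold change -0.50, adjusted p = 0.238 in the authors' deposited table), and limma-voom called Dars lower (adjusted p = 0.0162). Kars, the lysine enzyme of cytosol and mitochondria, had 17431, 18355 and 19046 under ICRF-193 against 20302, 23071 and 22304 in DMSO. Hars, the histidine enzyme, had 5595, 5388 and 5593 under ICRF-193 against 6794, 6570 and 6247 in DMSO. Both stayed just below the DMSO range, by a log2 fold change of -0.26 for Kars and -0.24 for Hars in the authors' deposited table, with adjusted p-values of 0.717 and 0.732.

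Class I cytosolic enzymes held the other 6 called genes, again among 10 and against 1.26% of all genes called lower. Yars, the tyrosine enzyme, had 4309, 4034 and 4315 normalised reads under ICRF-193 against 9635, 10637 and 9550 in DMSO. The ICRF-193 libraries were near equal and far below DMSO, 2.36-fold lower in the authors' deposited table (log2 fold change -1.24, adjusted p = 2.38e-05). Iars, the isoleucine enzyme of the complex, had 9387, 7562 and 7159 under ICRF-193 against 19279, 15011 and 13514 in DMSO. Library A was the highest of its group on both sides, the groups did not overlap, and the authors' deposited table gave a 1.98-fold lower mean (log2 fold change -0.99, adjusted p = 0.00109). Mars, the methionine enzyme, which also charges the initiator transfer RNA, had 6380, 6946 and 7665 under ICRF-193 against 12017, 13996 and 14172 in DMSO. Library A was here the lowest on both sides, and the fall in the authors' deposited table was 1.91-fold (log2 fold change -0.94, adjusted p = 0.00336). A processed pseudogene, Gm4849, matches Iars at 96.0% identity over 1656 bases, and another, Gm15580, matches Cars without a mismatch over 214 bases. Exons of Mars share 68 bases with Ddit3 on the opposite strand, a gene that was itself called lower, and whether strand was used in counting is not stated.

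Cars, the cysteine enzyme, had 4259, 4760 and 4447 under ICRF-193 against 8162, 9203 and 8020 in DMSO. No library overlapped, and the authors' deposited table gave it as 1.89-fold lower (log2 fold change -0.91, adjusted p = 0.00425). Lars, the leucine enzyme and a sensor of leucine for the mTORC1 kinase, had 11811, 10548 and 10558 under ICRF-193 against 21381, 18317 and 15893 in DMSO. The DMSO libraries were spread, from C to A, yet all lay above ICRF-193 (log2 fold change -0.76, adjusted p = 0.0232 in the authors' deposited table). Vars, the valine enzyme, had 11792, 13007 and 13989 under ICRF-193 against 20033, 22206 and 22843 in DMSO. It was the weakest of the 11 calls, at a log2 fold change of -0.75 and an adjusted p of 0.0326 in the authors' deposited table. Iars, Lars and Vars were also the called genes that lost their call in limma-voom fits without single libraries: all 3 without ICRF-193 library B, and Iars and Lars without ICRF-193 library C or DMSO library B.

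The other 4 class I genes of the cytosol did not pass the deposited test. Eprs, which joins the glutamate and proline enzymes in 1 protein, had 23952, 18857 and 18046 under ICRF-193 against 34379, 26901 and 24245 in DMSO. ICRF-193 library A nearly met DMSO library C (log2 fold change -0.49, adjusted p = 0.233 in the authors' deposited table). Wars, the tryptophan enzyme, had 4795, 5064 and 5559 under ICRF-193 against 6357, 7238 and 7232 in DMSO. The groups did not overlap (log2 fold change -0.43, adjusted p = 0.378 in the authors' deposited table), and limma-voom called Wars lower (adjusted p = 0.0358). Rars, the arginine enzyme, had 10881, 10816 and 10989 under ICRF-193 against 12591, 13581 and 13183 in DMSO. Its ICRF-193 libraries were the closest together of the 20 cytosolic genes, with an SD of 0.799% of the mean, and they lay below DMSO by a small margin (log2 fold change -0.27, adjusted p = 0.697 in the authors' deposited table). Qars, the glutamine enzyme, was the only cytosolic gene with a higher mean under ICRF-193, at 11528, 12067 and 12848 there against 11004, 11495 and 11777 in DMSO. Its groups overlapped and its log2 fold change was 0.09 (adjusted p = 0.974 in the authors' deposited table).

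Within the cytosolic set the multisynthetase complex held both called and uncalled genes. Of its 8 enzymes, 3 were called lower (Iars, Lars and Mars) and 5 were not (Dars, Eprs, Kars, Qars and Rars). In the deposited test 1.26% of all genes were called lower. The 8 had a median log2 fold change of -0.50 and a range of -0.99 to 0.09 in the authors' deposited table. Of the 12 cytosolic genes outside the complex, 8 were called lower, with a median of -0.89 in the same authors' deposited table. All 3 ICRF-193 libraries lay below all 3 DMSO libraries in 7 of the 8 complex genes and 11 of the 12 others. For this separation of libraries the share was 18.8% over the 14993 genes that reached 10 reads in 3 or more libraries. By structural class the medians were nearly the same, -0.75 for cytosolic class I and -0.70 for cytosolic class II in the authors' deposited table. Eprs was counted as class I, though it also holds a class II part. These are descriptions of small lists and no difference between them was tested.

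Called genes were found at both low and high levels. Per kb of coding sequence, the cytosolic genes had a median of 5800 normalised reads in DMSO, from 3394 for Cars to 11695 for Kars. Cars, at 1801 per kb under ICRF-193 against 3394 in DMSO, was called, and Kars, at 9764 per kb under ICRF-193 against 11695 in DMSO, was not. Nars stood next to Kars in level, at 5569 per kb under ICRF-193 against 11621 in DMSO. Mitochondrial genes had a median of 857 normalised reads per kb in DMSO, from 309 for Wars2 to 6836 for Lars2. By the GENCODE M21 annotation the exons together are longer than the coding part, for Nars 2927 against 1677 bases. How reads outside the coding part were counted is not given, so these ranks hold for coding length only.

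The mitochondrial enzymes, which charge the transfer RNAs encoded by mitochondrial DNA, showed smaller differences. Yars2, the tyrosine enzyme, had the lowest log2 fold change among them, with 1306, 1960 and 2201 normalised reads under ICRF-193 against 1918, 2903 and 3590 in DMSO. Library A was the lowest on both sides and the groups overlapped (log2 fold change -0.62, adjusted p = 0.416 in the authors' deposited table). Ears2, the glutamate enzyme, had 597, 773 and 903 under ICRF-193 against 971, 1241 and 1286 in DMSO. The groups did not overlap, and the log2 fold change of -0.62 had an adjusted p of 0.130 in the authors' deposited table. Iars2, the isoleucine enzyme, had 5847, 5452 and 5687 under ICRF-193 against 7604, 7579 and 8035 in DMSO. Its groups were well separated, with an adjusted p of 0.341 in the authors' deposited table and of 0.0165 in limma-voom on the recovered reads, where 5.97% of genes were called lower. Exons of Iars2 share 2034 bases (30.5%) with Rab3gap2 on the opposite strand. Shorter stretches on the opposite strand are shared with other genes by Farsb (248 bases) and by Hars and Hars2 (195 bases with each other). The same holds for Fars2 (115 bases), Ears2 (89 bases), Yars (30 bases) and Vars2 (296 bases with an antisense transcript). In a search of transcript sequences, Cars2 matched Naxd without a mismatch over 217 bases. Nars2 matched the antisense transcript C230038L03Rik in the same way over 284 bases.

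Cars2, the cysteine enzyme, was the only mitochondrial gene with a higher mean under ICRF-193 at the deposited scaling (Hars2, Mars2, Nars2 and Wars2 also turned positive when scaled by total reads), with 1599, 2104 and 2003 under ICRF-193 against 1383, 1641 and 1778 in DMSO. The groups overlapped, since ICRF-193 library A lay below DMSO libraries B and C (log2 fold change 0.25, adjusted p = 0.710 in the authors' deposited table). Vars2, the valine enzyme, had 1592, 1766 and 1842 under ICRF-193 against 2134, 2307 and 2508 in DMSO. Its groups were separate while the call was not made (log2 fold change -0.42, adjusted p = 0.417 in the authors' deposited table). Tars2, the threonine enzyme, had 2909, 4165 and 4317 under ICRF-193 against 3806, 5050 and 5362 in DMSO. Sars2, the serine enzyme, had 1041, 1400 and 1497 under ICRF-193 against 1266, 1691 and 1897 in DMSO. In both, library A was lowest in each group and the groups overlapped through it, with log2 fold changes of -0.32 for Tars2 and -0.30 for Sars2 in the authors' deposited table. Aars2, the alanine enzyme, had 1612, 2091 and 2231 under ICRF-193 against 2264, 2515 and 2763 in DMSO, a narrow separation at a log2 fold change of -0.35 in the authors' deposited table.

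Mars2, the methionine enzyme, had 779, 847 and 875 under ICRF-193 against 782, 832 and 915 in DMSO. Nars2, the asparagine enzyme, had 595, 585 and 667 under ICRF-193 against 657, 674 and 620 in DMSO. The groups overlapped almost fully in both, at log2 fold changes of -0.02 for Mars2 and -0.08 for Nars2 in the authors' deposited table. Wars2, the tryptophan enzyme and the lowest of the set per kb of coding sequence, had 292, 365 and 337 under ICRF-193 against 339, 319 and 341 in DMSO. Hars2, the histidine enzyme, had 937, 1402 and 1302 under ICRF-193 against 1157, 1394 and 1353 in DMSO. Neither separated the groups (log2 fold changes of -0.01 for Wars2 and -0.10 for Hars2 in the authors' deposited table). Fars2, Rars2 and Pars2 had log2 fold changes of -0.36, -0.27 and -0.17 in the authors' deposited table, with overlap for Fars2 only. Lars2, the leucine enzyme, had a mean of 14765 normalised reads under ICRF-193 against 18498 in DMSO in the authors' deposited table (log2 fold change -0.33, adjusted p = 0.685), and the search left its single libraries unresolved.

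A pair of enzymes for the same amino acid was compared as the log2 ratio of the cytosolic to the mitochondrial transcript in each library, a measure in which the size factor cancels. The ratio is not corrected for transcript length, so its change is read and not its level. Of 17 pairs, 16 had values per library. The ratio was lower under ICRF-193 in 13 of them, with a median change of -0.47. In 9 pairs all 3 ICRF-193 libraries lay below all 3 DMSO libraries, in 1 pair all lay above, and in 6 the groups overlapped. No share over ratios of other gene pairs was computed, so these counts have no background of their own. For single genes the shares were 18.8% below and 18.6% above. With 3 libraries against 3 the two-sided exact permutation test has 20 arrangements and cannot give a p below 0.1. That value was reached by 10 pairs, and adjusted over the 16 pairs it was 0.16, so this test could call no pair; no other test was run on the ratios. Pairs that share Eprs or Fars2 are not independent.

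**Figure D3:**
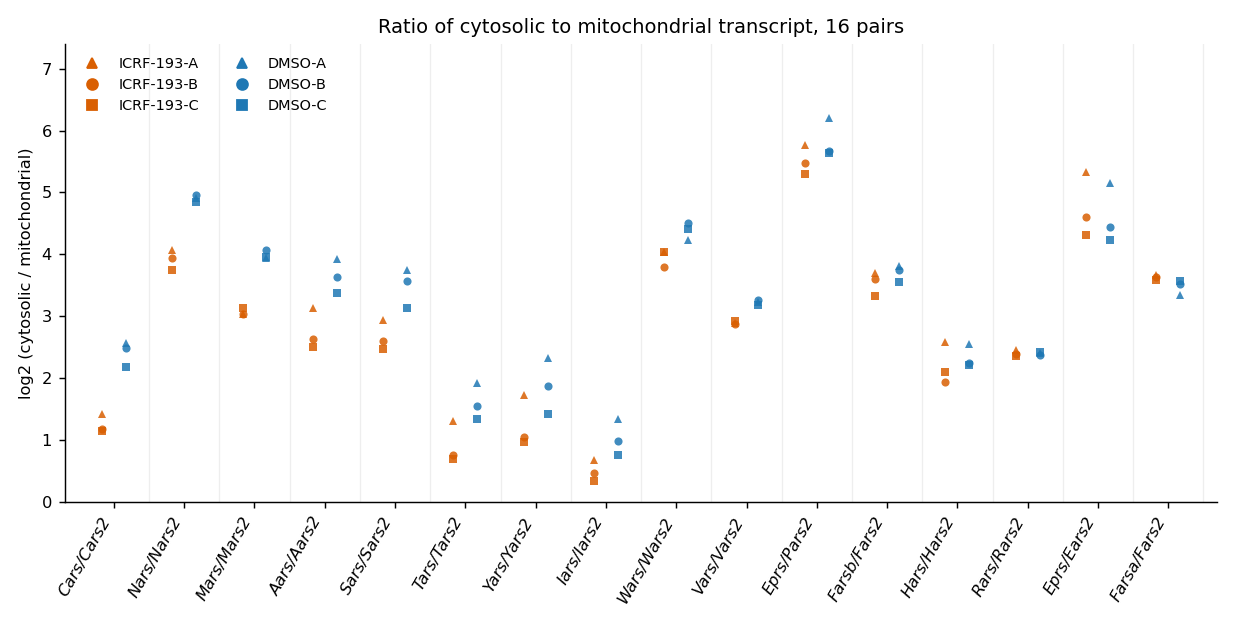
Log2 ratio of cytosolic to mitochondrial normalised reads for 16 pairs in each library, ICRF-193 in orange and DMSO in blue, ordered by the change. The pairs at the left have lower ratios in every ICRF-193 library, down to a change of -1.16 for Cars/Cars2, and Rars/Rars2 is level.

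The cysteine pair changed most. Cars/Cars2 had log2 ratios of 1.41, 1.18 and 1.15 under ICRF-193 against 2.56, 2.49 and 2.17 in DMSO, a change of -1.16, with the cytosolic member lower and the mitochondrial member slightly higher. Nars/Nars2 had 4.08, 3.94 and 3.75 under ICRF-193 against 4.91, 4.95 and 4.84 in DMSO, a change of -0.98. Mars/Mars2 had 3.03, 3.03 and 3.13 under ICRF-193 against 3.94, 4.07 and 3.95 in DMSO, a change of -0.92. In these last 2 pairs the mitochondrial partner was nearly level and the change lay in the cytosolic one. Aars/Aars2 had 3.14, 2.64 and 2.50 under ICRF-193 against 3.92, 3.63 and 3.38 in DMSO, and Sars/Sars2 had 2.94, 2.60 and 2.48 under ICRF-193 against 3.74, 3.57 and 3.13 in DMSO. Their changes were -0.88 for Aars/Aars2 and -0.81 for Sars/Sars2, without overlap, and smaller than the fall of the cytosolic gene because the partner was also lower.

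Tars/Tars2 had 1.30, 0.75 and 0.70 under ICRF-193 against 1.92, 1.55 and 1.34 in DMSO, a change of -0.69. Its separation was narrow, with ICRF-193 library A just under DMSO library C. Yars/Yars2 changed by -0.63, with 1.72, 1.04 and 0.97 under ICRF-193 against 2.33, 1.87 and 1.41 in DMSO. Here ICRF-193 library A crossed DMSO library C. Iars/Iars2 had 0.68, 0.47 and 0.33 under ICRF-193 against 1.34, 0.99 and 0.75 in DMSO, a change of -0.53 without overlap. The Wars/Wars2 and Vars/Vars2 ratios fell short of these in size, at -0.42 and -0.33, again without overlap. Lars/Lars2 could be given only from the group means, with a ratio of 0.743 under ICRF-193 against 1.002 in DMSO, a log2 change of -0.43 computed from the means in the authors' deposited table.

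The pairs that stayed level or went the other way had a cytosolic member that was not called. Rars/Rars2 had log2 ratios of 2.46, 2.39 and 2.36 under ICRF-193 against 2.40, 2.38 and 2.43 in DMSO, a change of 0.00 (0.00081 before rounding). Farsa/Fars2 was the 1 pair with a higher ratio in every ICRF-193 library, at 3.67, 3.63 and 3.58 under ICRF-193 against 3.34, 3.52 and 3.56 in DMSO, a change of 0.16. With the other subunit, Farsb/Fars2, the change was -0.16 and the groups overlapped. Eprs changed by 0.14 against Ears2 and by -0.32 against Pars2, with overlap in both, and Hars/Hars2 changed by -0.12 with overlap.

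Libraries A were set against B and C because they stood apart in the sums of fibroblast, endoderm and 2-cell markers. Among cytosolic genes the log2 ratio of A over the mean of B and C ran from -0.25 to 0.38 under ICRF-193 and from -0.41 to 0.43 in DMSO. Among 15 mitochondrial genes it ran from -0.67 to 0.07 under ICRF-193 and from -0.76 to 0.04 in DMSO, mostly below 0 in both groups. Within libraries A alone the median log2 difference, ICRF-193 minus DMSO, was -0.81 for cytosolic and -0.30 for mitochondrial genes, and within B and C it was -0.72 for cytosolic and -0.29 for mitochondrial genes. The difference within B and C was of about the same size as that within libraries A. A limma-voom fit with a term for this split of the libraries called 19 of 20 cytosolic genes lower, all but Qars, and 9 of 15 mitochondrial genes lower and 1, Cars2, higher. In that fit 32.6% of all genes were called lower and 27.0% higher, so the mitochondrial share stands on a high background. The same fit called all 10 ESC markers lower, and 4 of 9 fibroblast markers and 3 of 6 2-cell markers higher; their part in the result was not tested. The term assumes the same shift of A in both groups.

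**Figure D4:**
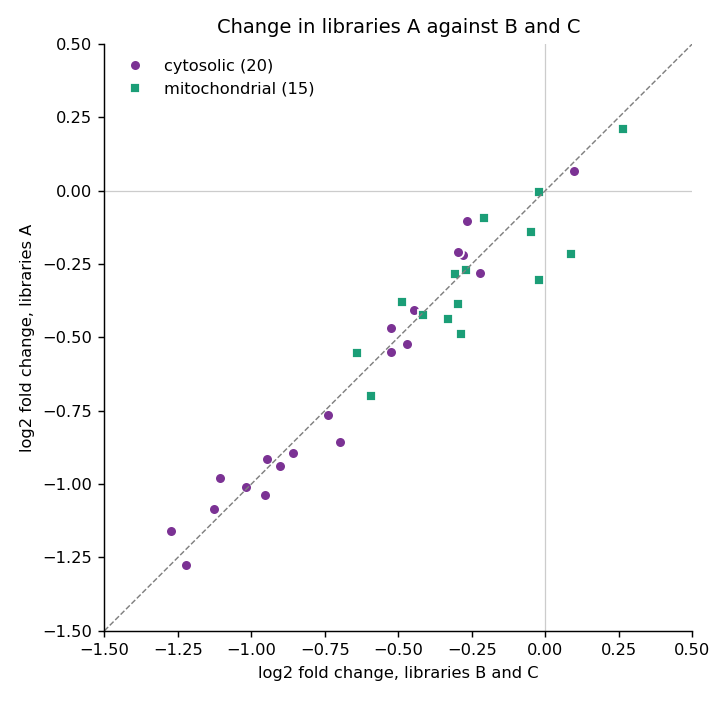
Log2 difference, ICRF-193 minus DMSO, within libraries A (vertical) against that within libraries B and C (horizontal) for 20 cytosolic and 15 mitochondrial synthetases, with the line of equality dashed. Points lie along the line, and the cytosolic genes reach from 0.10 to -1.27 on the horizontal axis.

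The promoter matches can be set beside these changes. The 5 cytosolic genes with the TGATGNAA core had log2 fold changes of -1.24 to -0.87 and a median of -1.01 in the authors' deposited table. The 8 without it ran from -1.11 (Sars) to 0.09 (Qars), with a median of -0.50 in the authors' deposited table, and the 7 with no window from -1.06 to -0.24. Of 7 called genes with a window 5 held the core, and of 6 cytosolic genes with a window that were not called 0 did. Sars and Mars were called and have no match in these 300 bases.

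**Figure D5:**
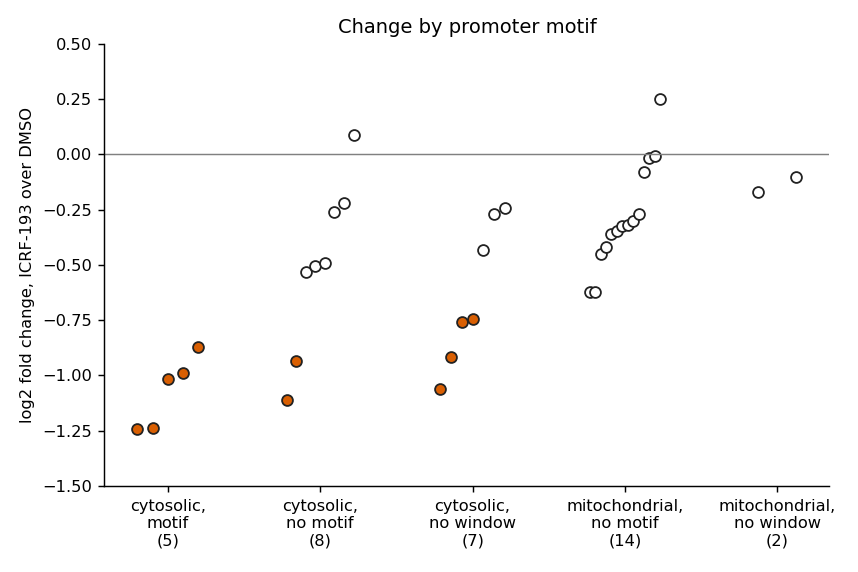
Deposited log2 fold change, ICRF-193 over DMSO, of the 36 synthetases by compartment and by whether the promoter window holds TGATGNAA. Filled points mark called genes; the 5 genes with the core lie between -1.24 and -0.87, and 2 called genes with a window lack it.

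Among 24 other genes of transfer RNA charging in the table (complex scaffolds, amidotransferase subunits, editing and selenocysteine enzymes, elongation factors that carry charged transfer RNA, and pyrophosphatases), 0 fell and 1 rose in the authors' deposited table. Of all genes tested there, 1.26% fell and 5.97% rose. The median log2 fold change of the 24 genes was -0.30 in the authors' deposited table. At an unadjusted p under 0.05, 4 were lower and 1 higher in the authors' deposited table, where 5.38% of all genes were lower and 11.5% higher at that p. In limma-voom 0 were called lower and 1 higher, against 5.97% and 9.76% of all genes. The 1 that rose was Eef1a2, an elongation factor 1 alpha isoform known from muscle and neurons, with 253, 277 and 319 under ICRF-193 against 93.1, 131 and 121 in DMSO. The groups did not overlap (log2 fold change 1.30, adjusted p = 1.63e-04 in the authors' deposited table). The scaffolds of the complex were not called, with log2 fold changes of -0.28 for Aimp1, -0.12 for Aimp2 and -0.45 for Eef1e1 in the authors' deposited table.

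The nearest other sets were the ATF4 and amino acid control genes and the amino acid transporters. Of 15 genes in the first list, 7 fell (Atf4, Atf5, Ddit3, Trib3, Chac1, Asns and Nupr1), against 1.26% of all genes, and Atf3 rose, against 5.97%, with a median log2 fold change of -0.66 in the authors' deposited table. Asns, the asparagine synthetase that makes the amino acid Nars uses, had 7007, 7320 and 6698 under ICRF-193 against 13488, 13853 and 11487 in DMSO. It was 1.85-fold lower in the authors' deposited table (adjusted p = 0.00558), a size within the range of the called synthetases. Atf4 had 3249, 4625 and 4685 under ICRF-193 against 8097, 13519 and 12604 in DMSO, with library A lowest in each group (log2 fold change -1.45, adjusted p = 6.67e-04 in the authors' deposited table). Of 12 transporters 6 fell (Slc7a3, Slc7a5, Slc7a11, Slc1a4, Slc1a5 and Slc6a9), again against 1.26%, and 0 rose, with a median log2 fold change of -0.85 in the authors' deposited table. Among them Slc7a5, which imports leucine and other large neutral amino acids, had 8737, 9389 and 10768 under ICRF-193 against 15373, 17905 and 19168 in DMSO. No library overlapped (log2 fold change -0.86, adjusted p = 0.00941 in the authors' deposited table). For the synthetase fits the limma-voom standard errors of the 11 called genes ran from 0.0787 for Tars to 0.169 for Iars on the log2 scale.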

How the data were processed

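Total RNA was sequenced in 6 libraries. TopHat, HTSeq, DESeq and build mm9 are named, per the submitters' processing notes; versions, annotation, settings and strand are not given in the sources used here. As a signal, the authors deposited 1 column per group: reads of a gene, each scaled by the size factor of its library and averaged over 3 libraries. The deposited fold change is a ratio of ICRF-193 over DMSO, given also as log2, and the deposited p-values are raw and Benjamini-Hochberg adjusted over 18759 genes.

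Whole reads per library were searched for that give each printed mean (15 digits). Of genes with reads, 18567 (99.0%) had a single solution, 158 were taken at a posterior of at least 0.99 and 34 stayed unresolved; among the synthetases these were 32, 3 (Aars, Kars, Qars) and 1 (Lars2). The rule that a solution lies within 4 robust SD was added after the candidates of Lars2 were seen. Simulated data served to test the search and the fits. There the limma-voom fit with group alone found 0 of 68 genes changed by a log2 of 0.5. It found 11 of 66 genes changed by a log2 of 1. With the library split these were 61 of 68 and 64 of 66, with 6 false calls. A gene that limma-voom with group alone did not call may thus still have changed. Recovered reads were fitted with limma-voom (limma 3.58.1, R 4.3.3) for 14993 genes that reached 10 reads in 3 or more libraries. Pair ratios used a pseudocount of 0.5 reads. Alternatives were other scalings, filters, a library split and leaving out libraries.

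No value cut chose the members, but they and the lists were proposed with earlier results of these data known. All 36 synthetases are accounted for; values per library were to be given for called genes, the largest change not called in each compartment and partners of called genes, and others were added. Genes of other lists are named where called, and Aimp1, Aimp2 and Eef1e1 besides. One gene of the charging list is not reported here.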

Additional observations from a re-analysis of the deposited data

How the results depend on the processing

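Main counts are those of the deposited test. The 11 synthetases called lower became 15 in limma-voom, where 5.97% of all genes were called lower. They became 28 with the library split term (32.6% of all genes lower) and 28 without both libraries A (28.7%). When single libraries were left out they were 8 to 18. The 8 came without ICRF-193 library B, where 0.502% of all genes were lower. The 18 came without DMSO library A, where 9.35% were, which added Dars, Farsb, Wars, Ears2, Iars2, Vars2 and Yars2. The count of 0 called higher became 1 with the split, where 27.0% of all genes were called higher. It was also 1 without both libraries A, where 25.4% were. Cytosolic genes called lower were 19 with the split, 19 without both libraries A and 8 to 14 with single libraries left out. Mitochondrial genes called lower were 0 in the deposited test and 1 in limma-voom. They were 1 with TMM factors (4.92% of all genes lower), 1 with no filter (4.05%) and 1 with scaling by total reads (2.75%). They were 9 with the split, 9 without both libraries A and 0 to 4 with single libraries left out. Mitochondrial genes called higher were 1 with the split and 1 without both libraries A. Charging partners called lower, 0 of 24 in the deposited test, were 16 of the 22 with reads per library in the split fit, where 32.6% of all genes were lower. They were 14 without both libraries A, where 28.7% of all genes were lower. With single libraries left out they were 0 to 7 (7 without DMSO library A, where 9.35% of all genes were lower). Partners called higher stayed between 0 and 1 (0 without ICRF-193 library B). The deposited test at a threshold of 0.1, or adjusted over genes with a mean of at least 10, made the same calls on the synthetases. Iars, Lars and Vars were the only calls lost, in fits without single libraries.

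Scaling by total reads moved the median log2 fold change of all genes by 0.124 and turned Hars2 (0.0085), Mars2 (0.112), Nars2 (0.0415) and Wars2 (0.108) positive; TMM turned Mars2 (0.0170) and Wars2 (0.0133), and leaving out both libraries A turned Wars2 (0.0889). With single libraries left out, Hars2 ran from -0.232 to 0.0627, Mars2 from -0.0677 to 0.0468 and Wars2 from -0.0895 to 0.0739. Among pair ratios, Rars/Rars2 turned with a pseudocount of 10 (-0.000101) and without both libraries A (-0.028), and with single libraries left out it ran from -0.027 to 0.022, Eprs/Ears2 from -0.143 to 0.413 and Hars/Hars2 from -0.310 to 0.0081. The full element in place of its core left 2 cytosolic promoters of 5. No paired analysis was possible because the libraries carry no replicate number. The causes were not tested. Each resolved synthetase had at least 291 reads per library, and the exact test of the pairs could not go below its smallest p.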
